A study of Homo sapiens with 8 samples.

Results

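The genes described here encode the factors of translation initiation and elongation, the proteins that bring the ribosome to the start codon of an mRNA and then move it along the coding sequence. They are the protein-coding genes (GENCODE 44) of the deposited count table whose symbols start with EIF1, EIF2S, EIF2B, EIF3, EIF4, EIF5, EIF6, EEF1 or EEF2, without EEF2K and the EIF2AK kinases. They number 62 of the 58302 genes of the table. The rule reads symbols and gene types, and the family was picked with earlier results of these data known.

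The libraries were made from total RNA of A549, an established cell line from a human lung adenocarcinoma, collected 72 h after transient transfection. There were 4 libraries labelled siAPEX1, from cells given an siRNA against APEX1 (the gene of the DNA repair enzyme APE1), and 4 labelled siCTRL, from cells given a scramble siRNA. All 8 were prepared with a small RNA kit that tails the 3′ end of each RNA, with a protocol changed so that longer RNAs such as primary miRNA transcripts are read too. The study calls them biological replicates, and the sources used here do not say whether they came from separate cultures, so the p-values measure the spread between these libraries, which may be technical. In a bulk library a change in the RNA per cell and a change in the number of cells of a kind cannot be told apart.

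APEX1 went against its label. It had 51, 61, 64 and 47 counts in the libraries labelled siCTRL and 21150, 19470, 27916 and 20767 in those labelled siAPEX1, and counts per gene do not separate the transcript from the transfected siRNA. Each direction given here is therefore that of the libraries labelled siAPEX1 against the libraries labelled siCTRL. Counts per library summed to between 1348386 and 1949886, and every library labelled siAPEX1 was smaller than every library labelled siCTRL. Of 5 epithelial markers all had counts, and their summed level was 388 to 476 CPM (counts of a gene relative to the total of its library, adjusted by edgeR's TMM method) under siCTRL and 141 to 194 CPM under siAPEX1, with KRT8, KRT18 and KRT19 lower and CDH1 higher. The 5 markers each of leukocytes, fibroblasts, endothelium and hepatocytes summed to at most 7.19 CPM in any library. The part of the fall in the epithelial sum in the results given here was not tested.

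Initiation starts when eIF2, loaded with GTP and the initiator tRNA, joins the small ribosomal subunit together with eIF1, eIF1A, eIF3 and eIF5. The mRNA is brought by eIF4F, in which eIF4E binds the cap, eIF4G is the scaffold and eIF4A the helicase, and the eIF4E-binding proteins compete with eIF4G for eIF4E. Phosphorylation of the alpha subunit of eIF2 blocks its exchange factor eIF2B and is the core of the integrated stress response. In elongation eEF1A delivers the aminoacyl-tRNA, the eEF1B complex recharges eEF1A with GTP, and eEF2 moves the ribosome by a codon. Many mRNAs of the translation machinery start with a C followed by a run of pyrimidines, the 5′ TOP element, through which mTORC1 controls their translation.

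The start sites of members that begin this way are shown because they form a sequence class inside the family. RefSeq starts (GRCh38) were found for 49 of the 62 genes, and 11 of them had a start at a C followed by at least 4 pyrimidines on the strand of the gene. Of all 35116 RefSeq starts 4.07% were of this kind, and 5.14% of the 27305 genes with a start had at least 1. Each sequence runs from 10 bases before the start to 20 bases from it, and the capitals mark the C and the unbroken pyrimidines after it.
EEF1A1 (chr6:73521013-73521042, minus strand): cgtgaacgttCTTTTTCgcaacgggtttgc
EEF1B2 (chr2:206159885-206159914, plus strand): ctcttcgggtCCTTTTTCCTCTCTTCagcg
EEF2 (chr19:3985444-3985473, minus strand): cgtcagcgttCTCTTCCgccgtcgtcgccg
EIF2S3 (chrX:24054946-24054975, plus strand): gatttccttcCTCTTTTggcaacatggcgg
EIF3K (chr19:38619178-38619207, plus strand): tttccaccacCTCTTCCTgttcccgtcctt
EIF4A2 (chr3:186783567-186783596, plus strand): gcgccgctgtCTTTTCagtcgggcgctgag
EIF4B (chr12:53006446-53006475, plus strand): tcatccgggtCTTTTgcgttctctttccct
The other 4 were EIF3D, EIF3F, EIF3M and EIF2S3B. The match is a property of the letters at the annotated start, and the starts used in these cells were not measured.

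Summed over the family, the factors took a smaller share of the reads under siAPEX1. Their counts made up 0.193 to 0.213% of all counts in the libraries labelled siCTRL (0.201 ± 0.00827%, SD, n = 4) and 0.134 to 0.149% in those labelled siAPEX1 (0.139 ± 0.00673%, n = 4). The groups did not overlap. Nuclear protein-coding genes without APEX1 also took a smaller share, 15.4 ± 0.296% against 12.2 ± 0.323% of all counts. Within the counts of these genes the factors held 1.31 ± 0.0331% under siCTRL and 1.14 ± 0.0294% under siAPEX1, again without overlap. These sums weigh abundant genes most, among them EIF1 (mean 232 CPM under siCTRL, 172 under siAPEX1) and EIF3A (168 and 107 CPM). Of the 38 factors tested, 22 had a negative and 16 a positive log2 fold change, so the sums do not describe each gene.

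Of the 62 genes, 38 passed the edgeR filter on low counts and were tested. At an adjusted p of at most 0.05, 10 of the 38 were lower (26.3%), 2 were higher (5.26%) and 26 did not pass. Over all 5368 genes tested 15.8% were lower and 15.9% higher, and over the nuclear protein-coding genes 15.9% were lower and 12.4% higher. The genes that fell were EIF1, EIF2S3, EIF3A, EIF4B, EIF4G2, EIF4G3, EIF4EBP1, EIF5B, EIF6 and EEF1A2, and those that rose were EIF2S1 and EEF1B2. The median log2 fold change was −0.16 over the 38 factors and −0.0035 over all genes tested. With the added requirement of a log2 fold change of at least 1 in size, EIF4EBP1 was the only factor called, lower, whereas 5.68% of all genes were lower and 3.6% higher by this rule. Without siCTRL replicate 1 or 3, or without siAPEX1 replicate 1, 2 or 4, EIF2S1 passed this rule too, higher, and the count was 2. In 9 of the 38 every library labelled siAPEX1 was below every library labelled siCTRL, and in 3 every one was above, against 14.9% and 14.0% of all genes tested. These counts include EIF2B4, lower, and EIF3E, higher, which did not pass the adjusted p.

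**Figure D1:**
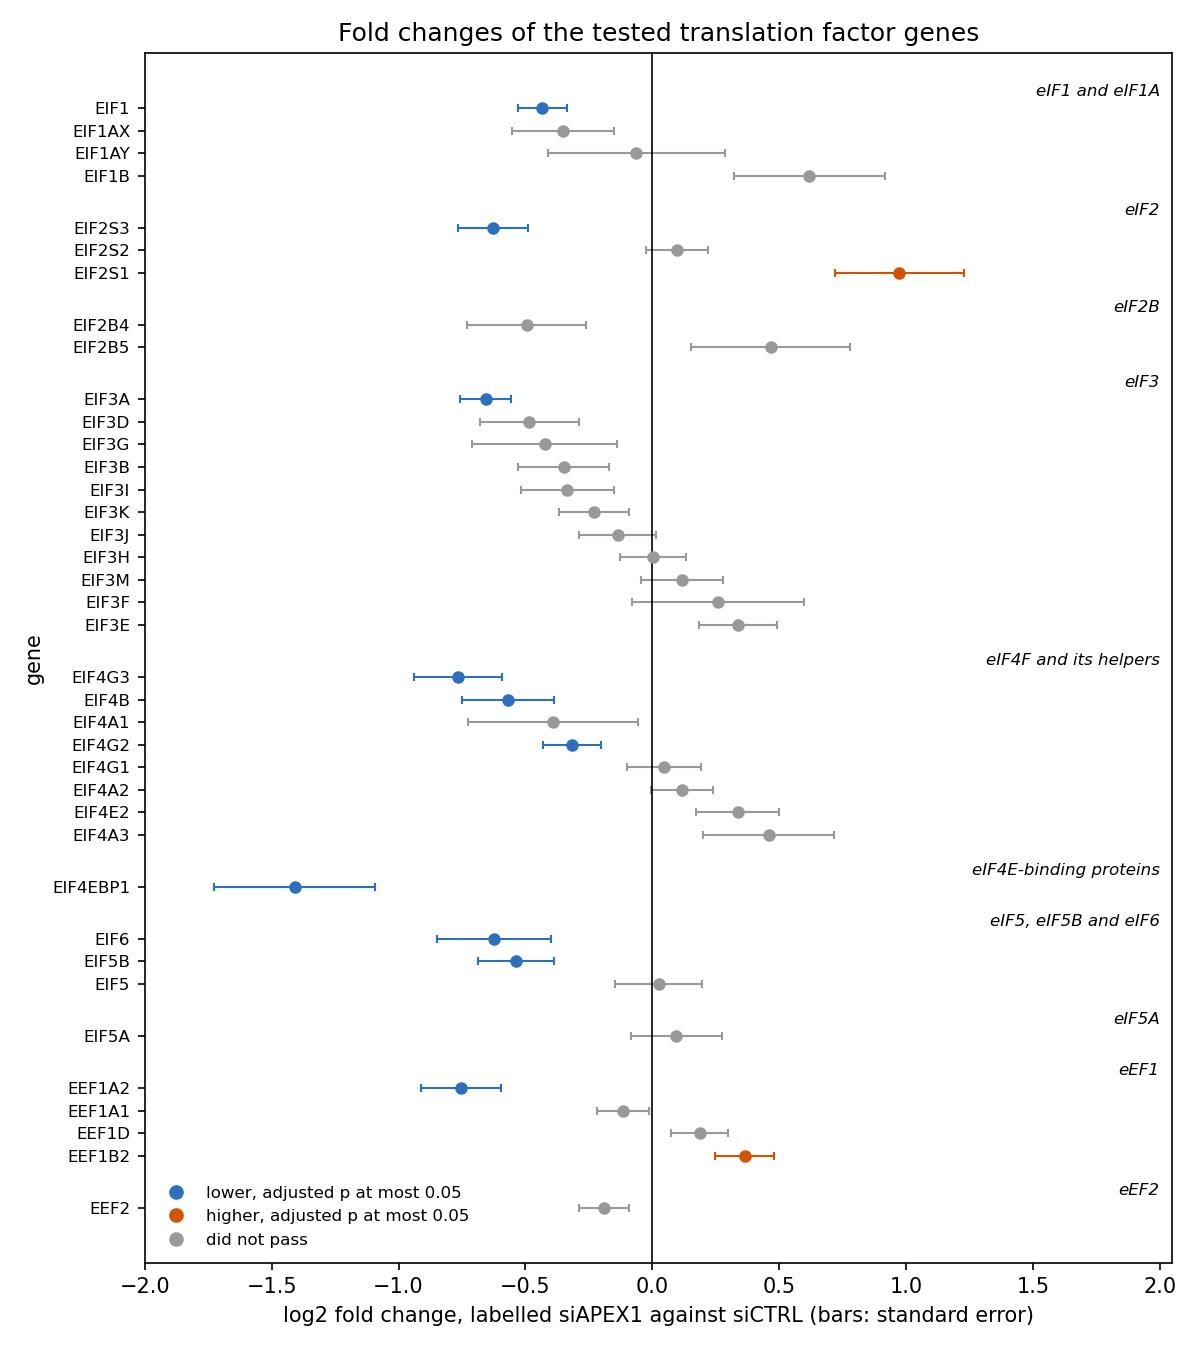
Log2 fold changes of the 38 tested factor genes, libraries labelled siAPEX1 against libraries labelled siCTRL (n = 4 each), with standard errors as bars, ordered by factor group. The 10 genes in blue were lower and the 2 in orange higher at an adjusted p of at most 0.05, and EIF4EBP1 lies farthest to the left at −1.41 and EIF2S1 farthest to the right at 0.97.

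Among the scanning factors, EIF1 fell and the others did not pass. EIF1 (ENSG00000173812, chr17:41688885-41692668, GRCh38), which guards the choice of the start codon, read 262, 216, 245 and 206 CPM in the libraries labelled siCTRL and 172, 166, 178 and 172 CPM in those labelled siAPEX1. Every siAPEX1 library was below every siCTRL library, and the siAPEX1 libraries lay within a narrow band (232 ± 25.99 against 172 ± 4.78 CPM, SD, n = 4; log2 fold change −0.43, standard error 0.0960, adjusted p = 0.000454). It was also the factor with the most reads per length, 99.3 ± 11.1 CPM per kb of the canonical transcript under siCTRL. Its paralog EIF1B, with 8 to 19 counts per library, stood at 0.62 on the log2 scale (adjusted p = 0.11). For eIF1A, which binds beside eIF1, the X-linked EIF1AX had 37, 40, 42 and 26 counts under siCTRL and 17, 14, 22 and 19 under siAPEX1 (log2 fold change −0.35, adjusted p = 0.189), and the near-identical EIF1AY had 5 to 18 counts in each library.

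The subunits of eIF2 went apart. EIF2S1 (ENSG00000134001, chr14:67360328-67386516) encodes the alpha subunit, the target of the stress kinases, and had 17, 12, 16 and 10 counts under siCTRL and 16, 13, 24 and 16 under siAPEX1, which is 8.55, 5.81, 7.41 and 5.53 CPM against 13.2, 10.6, 17.3 and 12.7 CPM. The raw counts overlap, and after scaling to library size and composition every siAPEX1 library was above every siCTRL library. Its level rose to 196% of that under siCTRL (log2 fold change 0.97, standard error 0.255, adjusted p = 0.00268). These are few reads, at most 24 in a library.

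EIF2S3 (ENSG00000130741, chrX:24054946-24078810), the gamma subunit that holds GTP and the initiator tRNA, moved the other way. It read 50.8, 44.1, 48.2 and 40.95 CPM under siCTRL and 31.3, 27.6, 29.6 and 30.98 CPM under siAPEX1, and the groups did not overlap (log2 fold change −0.63, standard error 0.138, adjusted p = 0.000403). EIF2S2, the beta subunit, read 64.4, 51.3, 53.8 and 57 CPM against 61.8, 55.2, 54.1 and 71.5 CPM, with overlapping groups (log2 fold change 0.098, adjusted p = 0.584). The intronless copy EIF2S3B had at most 1 count in any library.

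Ratios of raw counts within a library do not depend on the scaling. The log2 ratio of EIF2S3 to EIF2S1 was 2.57, 2.92, 2.70 and 2.89 in the libraries labelled siCTRL and 1.25, 1.39, 0.77 and 1.29 in those labelled siAPEX1. The gamma subunit thus had 5.94 to 7.58 reads for each read of the alpha subunit under siCTRL and 1.71 to 2.62 under siAPEX1. The difference of the mean log2 ratios was −1.60, a 3.03-fold change of the ratio. For EIF2S2 to EIF2S1 it was −0.88 and for EIF2S3 to EIF2S2 it was −0.72, and in all 3 pairs the groups did not overlap. The 3 pairs are not independent, since the ratio of EIF2S3 to EIF2S1 follows from those of the other pairs. The two-sided exact permutation p was 0.0286 for each, the smallest that 70 labelings of 4 against 4 can give. Adjusted over the 17 ratios compared, of which 9 were of paralogs, 3 of eIF2 subunits and 5 of snoRNAs to their hosts, it was 0.0607, so none of the 17 passed 0.05. The pairs were chosen after the fold changes had been seen.

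The exchange factor eIF2B was measured with few reads. EIF2B4, the delta subunit and the one with the most counts, read 10.6, 14.5, 14.4 and 14.9 CPM under siCTRL and 9.06, 9.74, 10.1 and 9.53 CPM under siAPEX1. Its groups did not overlap and its fold change did not pass (log2 fold change −0.50, standard error 0.234, adjusted p = 0.104). EIF2B5, which holds the catalytic site, had 8 to 12 counts per library and stood at 0.47 on the log2 scale (adjusted p = 0.279). EIF2B1, EIF2B2 and EIF2B3 were below the filter.

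In eIF3, the scaffold of the initiation complex, 1 of 11 tested subunits was lower and 0 were higher by edgeR (1 higher at an unadjusted p under 0.05, 0 with DESeq2). This is 9.09% lower, where 15.8% of all genes tested were lower and 15.9% higher. The subunit that fell was EIF3A (ENSG00000107581, chr10:119033670-119080817), the largest subunit of the complex, with 156, 170.5, 157 and 189 CPM under siCTRL and 112, 107, 92.99 and 114 CPM under siAPEX1. It fell in every siAPEX1 library to a level below that of any siCTRL library, to 63.4% of the siCTRL level (log2 fold change −0.66, standard error 0.102, adjusted p = 1.82e-06), and had the smallest adjusted p of the 38. The other subunits spread over both directions without passing, from EIF3D at −0.48 (adjusted p = 0.0553) to EIF3E at 0.34 (adjusted p = 0.0892). The log2 fold changes of the 11 ran from −0.66 to 0.34 with a median of −0.23, and 7 were negative. Without siCTRL replicate 4, without siAPEX1 replicate 2 or without siAPEX1 replicate 3 the number of eIF3 subunits called was 2.

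The near-identical genes EIF3C and EIF3CL had a total of 1 and 0 counts. Reads that fit both copies are not unique, and the counting leaves such reads out, so the level of this subunit was not measured. For EIF3L, 41.1% of the exon bases are shared with another gene on the same strand, and it had 4 to 11 counts.

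Of the 8 tested genes of eIF4F and its helpers, 3 were lower and 0 higher by edgeR (1 higher at an unadjusted p under 0.05, 0 with DESeq2). This is 37.5% lower, where 15.8% of all genes tested were lower and 15.9% higher. EIF4G3 (ENSG00000075151, chr1:20806292-21177285), the second eIF4G scaffold, read 33.7, 33.4, 46.3 and 35.97 CPM under siCTRL and 21.4, 32.5, 18.02 and 16.7 CPM under siAPEX1. The siAPEX1 libraries were all lower, with replicate 2 close to the lowest siCTRL library (log2 fold change −0.77, standard error 0.174, adjusted p = 0.000577). EIF4G1, the main scaffold, read 33.01 ± 3.91 CPM under siCTRL and 33.95 ± 5.07 CPM under siAPEX1 (SD, n = 4; log2 fold change 0.047, adjusted p = 0.845).

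EIF4G2 (ENSG00000110321, chr11:10797050-10808940), an eIF4G-like protein that does not bind eIF4E and serves non-canonical initiation, read 87.5, 88.6, 79.7 and 77.5 CPM under siCTRL and 67.5, 60.1, 80.02 and 59.6 CPM under siAPEX1. In 3 of 4 siAPEX1 libraries it was below the siCTRL range, and replicate 3 was inside it (log2 fold change −0.31, standard error 0.114, adjusted p = 0.0313). The call was lost without siCTRL replicate 1 or 2 (adjusted p = 0.0628 and 0.0828) and without siAPEX1 replicate 1, 2 or 4 (adjusted p = 0.08, 0.144 and 0.166). It was also lost with DESeq2 (adjusted p = 0.121) and with TMM factors from nuclear protein-coding genes (adjusted p = 0.065). Over the alternatives the adjusted p ranged from 7.66e-06 to 0.166.

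EIF4B (ENSG00000063046, chr12:53006282-53042215), which stimulates the eIF4A helicase and is a TOP mRNA, read 22.1, 39.2, 27.3 and 36.5 CPM under siCTRL and 22.2, 18.7, 20.9 and 22.2 CPM under siAPEX1. The siCTRL libraries spread widely, and the lowest of them, replicate 1, lay within the siAPEX1 range (log2 fold change −0.57, standard error 0.180, adjusted p = 0.0128). Without siCTRL replicate 2 the adjusted p was 0.0782 and without siAPEX1 replicate 2 it was 0.053, within a range of 3.62e-05 to 0.0782 over the alternatives. Without either of these libraries 1 gene of the group was called. EIF4A1 had 4 to 18 counts per library and has 13 annotated pseudogenes. Of its exon bases 47.4% are shared with other genes on the same strand. The helicases EIF4A1 and EIF4A2 had log2 fold changes of −0.39 and 0.12. Their paralog EIF4A3, listed with this group though not a subunit of eIF4F, had 0.46, and none of them passed the threshold. EIF4E, the cap-binding protein, had 5 to 12 counts per library and was not tested.

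EIF4EBP1 (ENSG00000187840, chr8:38030534-38060365), the eIF4E-binding protein that mTORC1 phosphorylates, fell the most of the family. It had 32, 18, 25 and 18 counts under siCTRL and 5, 8, 6 and 3 counts under siAPEX1, or 16.1, 8.72, 11.6 and 9.96 CPM against 4.12, 6.49, 4.33 and 2.38 CPM. No library labelled siAPEX1 reached the lowest siCTRL library. By the fitted fold change the level fell to 37.7% of the siCTRL level (log2 fold change −1.41, standard error 0.318, adjusted p = 0.000549). The other 3 genes of the group, EIF4EBP2, EIF4EBP3 and EIF4ENIF1, were below the filter.

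**Figure D2:**
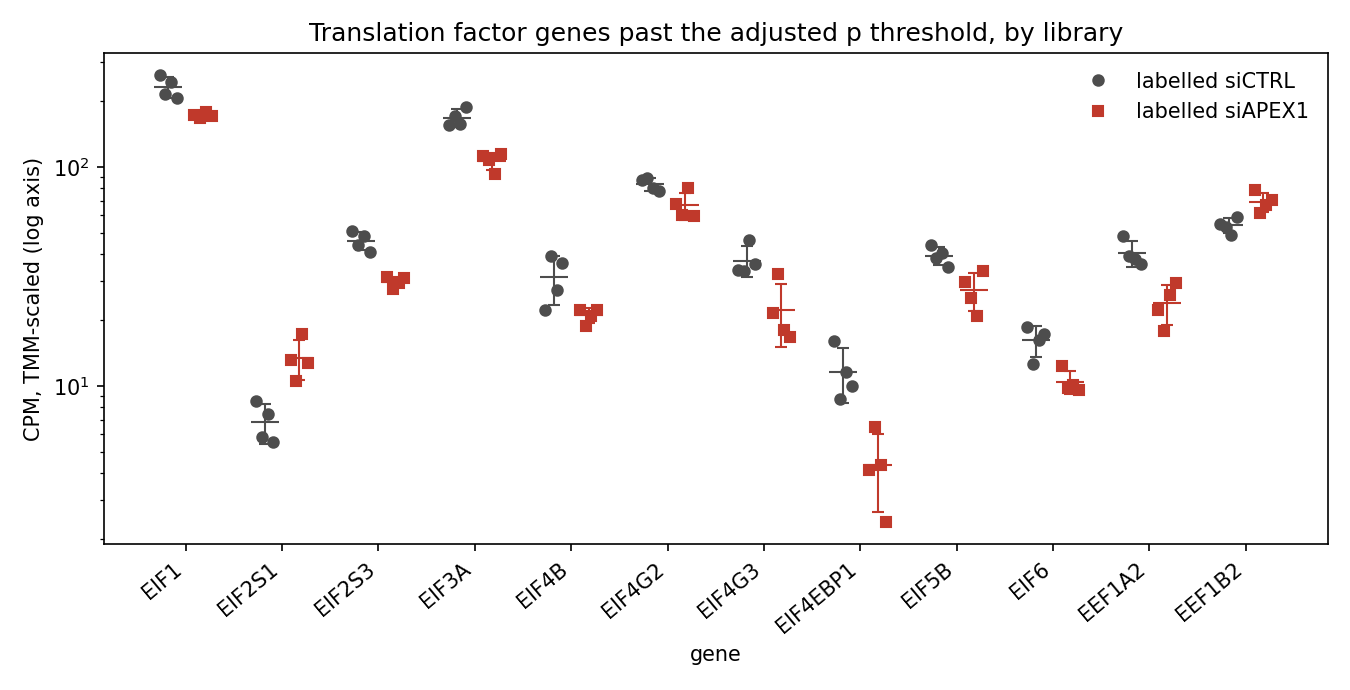
CPM (log axis) of the 12 factor genes called at an adjusted p of at most 0.05, for each of the 4 libraries labelled siCTRL (circles) and the 4 labelled siAPEX1 (squares), with mean and SD as bars. The groups are apart for every gene but EIF4B and EIF4G2, where at least 1 library lies in the range of the other group.

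Of the factors of subunit joining, EIF5B and EIF6 fell. EIF5B (ENSG00000158417, chr2:99337371-99401326), the GTPase that joins the large subunit, read 43.7, 38.3, 40.3 and 34.9 CPM under siCTRL and 29.6, 25.2, 20.9 and 33.4 CPM under siAPEX1. Its groups did not overlap, though replicate 4 of siAPEX1 lay just under the lowest siCTRL library (log2 fold change −0.54, standard error 0.151, adjusted p = 0.0052). Without siAPEX1 replicate 3 the adjusted p was 0.069, within a range of 6.20e-06 to 0.069 over the alternatives.

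EIF6 (ENSG00000242372, chr20:35278907-35284985), which keeps the large subunit from joining too early, had 26 to 37 counts under siCTRL and 12 to 15 under siAPEX1. It read 18.6, 12.6, 16.2 and 17.2 CPM against 12.4, 9.74, 10.1 and 9.53 CPM, with replicate 1 of siAPEX1 just below replicate 2 of siCTRL (log2 fold change −0.63, standard error 0.225, adjusted p = 0.0292). This call was lost under 7 of 18 alternatives. Among these was DESeq2 (adjusted p = 0.132). The others were the fits without siCTRL replicate 1, 3 or 4 (adjusted p = 0.0787, 0.0514 and 0.057) and without siAPEX1 replicate 2, 3 or 4 (adjusted p = 0.0778, 0.0841 and 0.0887). Over the alternatives the adjusted p ranged from 0.00047 to 0.132. EIF5, the GTPase-activating protein of eIF2, stood at 0.026 on the log2 scale (adjusted p = 0.93). EIF5A, the hypusine-bearing factor that helps ribosomes over difficult peptide bonds, read 26.1, 17.4, 23.2 and 21.6 CPM under siCTRL and 28.8, 25.97, 21.6 and 18.3 CPM under siAPEX1. Its groups overlapped (log2 fold change 0.095, standard error 0.179, adjusted p = 0.732), and its copy EIF5AL1 had at most 1 count.

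Of 5 tested elongation factors 1 was lower and 1 higher (20% each), where 15.8% of all genes tested were lower and 15.9% higher. EEF1A2 (ENSG00000101210, chr20:63488013-63499239), the eEF1A isoform known from muscle and neurons and raised in several tumours, read 48.3, 39.2, 38 and 35.97 CPM under siCTRL and 22.2, 17.9, 25.95 and 29.4 CPM under siAPEX1. All siAPEX1 libraries were lower, and by the fitted fold change the level fell to 59.3% (log2 fold change −0.75, standard error 0.158, adjusted p = 0.000221). EEF1A1, the general isoform, read 150.3, 168, 138 and 159.9 CPM against 146, 117, 146 and 160.5 CPM, with overlap (log2 fold change −0.11, standard error 0.102, adjusted p = 0.428). EEF1A1 has 49 annotated pseudogenes, and reads that fit both are not counted.

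The log2 ratio of EEF1A2 to EEF1A1 within a library was −1.64, −2.10, −1.86 and −2.15 under siCTRL and −2.71, −2.71, −2.49 and −2.45 under siAPEX1. The isoform ratio was lower in each siAPEX1 library, by −0.65 in the mean (exact permutation p = 0.0286, adjusted p = 0.0607).

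EEF1B2 (ENSG00000114942, chr2:206159585-206162928), the exchange factor that recharges eEF1A, was the only elongation factor that rose. It read 54.8, 53.3, 48.7 and 59.2 CPM under siCTRL and 78.2, 61.7, 67.04 and 70.7 CPM under siAPEX1, and the lowest siAPEX1 library was just above the highest siCTRL library (log2 fold change 0.36, standard error 0.116, adjusted p = 0.0138). Without siCTRL replicate 3 the adjusted p was 0.0611, within a range of 0.00498 to 0.894 over the alternatives, which leaves EIF2S1 as the only factor called higher and EEF1A2 as the only elongation factor called. With library size alone EEF1B2 stood at 0.023 on the log2 scale and did not pass (adjusted p = 0.894). Its call was lost under 5 of 18 alternatives. These included DESeq2 (adjusted p = 0.0658), all genes with at least 1 count (0.2) and at least 10 counts in every library (0.054). EEF1B2 has 8 annotated pseudogenes, and 16.4% of its exon bases are shared with other genes on the same strand. EEF1D, the partner of EEF1B2, stood at 0.19 on the log2 scale (adjusted p = 0.21), and 34.0% of the exon bases of EEF1D overlap genes on either strand. EEF1G, the scaffold of the complex, had 0 counts in all 8 libraries, and 99.7% of its exon bases are shared with another gene on the same strand, whose reads the counting leaves out.

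EEF2, the translocase, read 271, 231, 232 and 232 CPM under siCTRL and 233, 238, 198 and 178 CPM under siAPEX1. The groups overlapped and the change did not pass (log2 fold change −0.19, standard error 0.0983, adjusted p = 0.143). The 4 genes of methyltransferases that act on eEF1A and eEF2 had at most 6 counts in a library and were not tested.

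Levels between genes were compared per kb of the canonical transcript. They hold only reads that fit 1 place and 1 gene. Annotated pseudogenes numbered 49 for EEF1A1, 8 for EEF1B2, 7 for EIF1, 3 for EIF3K and 0 for EEF2. The order is thus one of reads counted in this way, and the order of the transcripts may differ. Under siCTRL the order began with EIF1 (99.3 ± 11.1 CPM per kb), EEF2 (76.4 ± 6.20), EIF3K (72.02 ± 11.1), EEF1B2 (66.8 ± 5.39) and EEF1A1 (43.9 ± 3.67). EEF2 and EIF3K, and EIF3K and EEF1B2, differed by less than the sum of their SDs, and the other neighbours by more. Within eIF2 the beta subunit read 22.1 ± 2.22, the gamma subunit 13.3 ± 1.26 and the alpha subunit 1.64 ± 0.341 CPM per kb, so the subunit that rose was the one with the lowest level. Under siAPEX1 the same subunits read 23.7 ± 3.13, 8.64 ± 0.487 and 3.23 ± 0.679 CPM per kb.

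Genes with a pyrimidine start were called in both directions, as were all genes tested, of which 15.8% were lower and 15.9% higher. Of 10 with such a start, EIF2S3 and EIF4B were lower (20%), EEF1B2 was higher (10%) and 7 did not pass. Their median log2 fold change was −0.15. Of the 20 tested factors whose RefSeq starts were not of this kind, 5 were lower (25%) and 1 was higher (5%), with a median of −0.23. No test was made of the difference. Of the 8 tested members of the list of known TOP mRNAs (EEF1A1, EEF1B2, EEF1D, EEF2, EIF3E, EIF3F, EIF3H and EIF4B), 1 was lower and 1 was higher (12.5% each).

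Ratios of paralogs gave 1 further pair without overlap. The log2 ratio of EIF1B to EIF1 was −6.03, −4.55, −5.35 and −5.54 under siCTRL and −4.25, −3.98, −4.49 and −4.17 under siAPEX1, higher by 1.14 (exact permutation p = 0.0286, adjusted p = 0.0607), and it rests on 8 to 19 counts of EIF1B. The ratios of EIF4G2 and EIF4G3 to EIF4G1 were lower by 0.36 and 0.83 in size on the log2 scale, each with overlap in 1 library or more (differences −0.36 and −0.83, each with an exact permutation p of 0.0571 and an adjusted p of 0.0971). The 3 ratios among EIF4A1, EIF4A2 and EIF4A3 and that of EIF1AY to EIF1AX overlapped too. Those with EIF4A1 rest on its 4 to 18 counts per library.

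**Figure D3:**
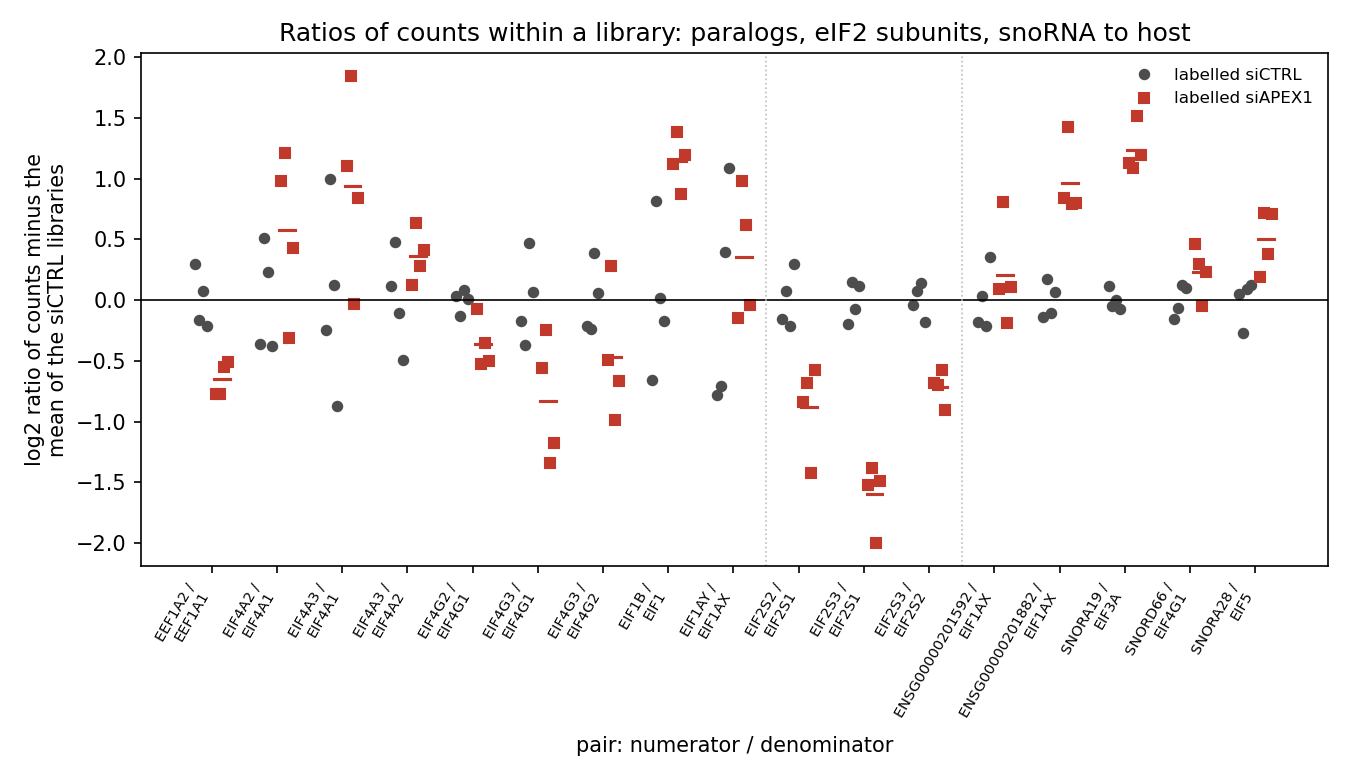
Log2 ratio of raw counts of a pair within each library minus the mean of the siCTRL libraries, for 9 pairs of paralogs, 3 pairs of eIF2 subunits and 5 pairs of a snoRNA and its host, divided by dotted lines. Circles are the 4 libraries labelled siCTRL, squares the 4 labelled siAPEX1 and short lines their mean, and the ratio of EIF2S3 to EIF2S1 has the lowest siAPEX1 mean at −1.60 and that of SNORA19 to EIF3A the highest at 1.23.

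Several factor genes carry small nucleolar RNAs (snoRNAs) in their introns, which guide the modification of ribosomal and other RNAs and are cut out of the host transcript. Of 19 snoRNA genes within 9 host genes, 11 overlap an annotated exon of the host. Of these, 10 had 0 counts in every library and the other at most 2 in a library. The counting leaves out reads that overlap more than 1 gene, and its part in these counts was not tested. Of the 8 others, snoZ196 and ENSG00000222588 had 0 counts in every library too, and 5 passed the filter. The sequences of these 5 (GRCh38) are shown because SNORA19 and SNORA28 had more counts in every library than any factor gene had. Capitals mark ANANNA and ACA in those named SNORA and TGATGA and CTGA in the others.
SNORA19 (chr10:119060011-119060138, minus strand, within EIF3A): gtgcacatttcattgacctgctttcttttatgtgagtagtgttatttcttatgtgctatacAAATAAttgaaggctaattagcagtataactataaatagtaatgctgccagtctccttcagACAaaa
SNORA28 (chr14:103337849-103337974, plus strand, within EIF5): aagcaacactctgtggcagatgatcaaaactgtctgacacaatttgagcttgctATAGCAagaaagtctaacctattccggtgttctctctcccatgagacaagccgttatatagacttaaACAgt
SNORD66 (chr3:184325696-184325771, plus strand, within EIF4G1): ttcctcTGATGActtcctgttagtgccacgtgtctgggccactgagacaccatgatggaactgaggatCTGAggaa
ENSG00000201882 (chrX:20136066-20136135, minus strand, within EIF1AX): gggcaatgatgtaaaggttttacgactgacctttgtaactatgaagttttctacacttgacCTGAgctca
ENSG00000201592 (chrX:20136306-20136385, minus strand, within EIF1AX): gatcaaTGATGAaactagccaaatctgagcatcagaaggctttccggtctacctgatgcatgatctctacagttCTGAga
Only the strand of the snoRNA was searched, ANANNA in the middle from 35 to 65% of the length, ACA in the last 8 bases, TGATGA in the first 20 and CTGA in the last 15. The search for ANANNA with ACA found both in 73.8% of the 214 SNORA transcripts of GENCODE 44. In the 728 other snoRNA transcripts CTGA was found in 56.6% and TGATGA with CTGA in 29.3%. In ENSG00000201882 the letters TGATGA were not in the window.

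While the hosts fell or did not pass, 4 of the 5 snoRNAs rose and 0 fell by edgeR, also at an unadjusted p under 0.05 and with DESeq2. With library size alone 2 rose and 1 fell: SNORA19 was at 0.23 and ENSG00000201882 at 0.26 on the log2 scale, SNORA28 did not pass at 0.19 (adjusted p = 0.0749) nor SNORD66 at −0.073, and ENSG00000201592 was lower at −0.48 (adjusted p = 0.0104). Over all 155 snoRNA genes tested 75.5% were higher and 5.81% lower, so the snoRNAs within factor genes moved as most snoRNAs did. SNORA19, in an intron of EIF3A, read 1418, 1388, 1317 and 1509 CPM under siCTRL and 2055, 1915, 2233 and 2192 CPM under siAPEX1 (log2 fold change 0.58, standard error 0.0840, adjusted p = 5.49e-07). It thus rose without overlap between the groups while its host fell to 63.4%.

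The log2 ratio of SNORA19 to EIF3A was 3.19, 3.03, 3.07 and 2.999 in the libraries labelled siCTRL and 4.20, 4.16, 4.59 and 4.26 in those labelled siAPEX1. Its mean was higher by 1.23, a 2.35-fold change of the ratio (exact permutation p = 0.0286, adjusted p = 0.0607). SNORA28, in EIF5, read 606 ± 26.1 CPM under siCTRL and 877 ± 72.3 CPM under siAPEX1 (SD, n = 4; log2 fold change 0.53, standard error 0.0869, adjusted p = 4.40e-06), with a ratio to its host higher by 0.50. ENSG00000201882, in EIF1AX, read 163 ± 25.8 against 247 ± 20.9 CPM (log2 fold change 0.60, standard error 0.102, adjusted p = 8.76e-06), with a ratio higher by 0.96.

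Neither of these ratios overlapped between the groups, and each had an exact permutation p of 0.0286 and an adjusted p of 0.0607. SNORD66, in EIF4G1, rose by 0.27 on the log2 scale (197 ± 15.8 against 238 ± 9.45 CPM, adjusted p = 0.0219), and its ratio to the host overlapped. Without siCTRL replicate 1 or 3 its adjusted p was 0.0657 and 0.0627, within a range of 0.00772 to 0.557 over the alternatives. SNORD66 also lost its call with all genes of at least 1 count and with at least 10 counts in every library. ENSG00000201592, which lies in the same gene as ENSG00000201882, stood at −0.14 on the log2 scale (adjusted p = 0.531).

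The 24 factor genes that were not tested had at most 17 counts in any library, and 9 of them at most 3 in every library, among them EEF1G, EIF3CL and EEF1E1-BLOC1S5 with 0 counts throughout. A count of 3 is the upper limit that a count of 0 allows, for counting error only. Factors such as EIF4E, EIF4H, EIF3L, EIF4EBP2 and EEF1E1 therefore could not be followed at this depth.

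Of 59 other genes of the translation pathway, grouped into 6 lists, 33 were tested, and 2 were lower (6.06%) and 4 higher (12.1%), each a smaller share than the 15.8% and 15.9% of all genes tested. Among the kinases and phosphatase subunits of eIF2 alpha, EIF2AK2, the kinase activated by double-stranded RNA, read 33.7, 32.9, 41.7 and 45.4 CPM under siCTRL and 18.9, 26.8, 20.9 and 23.8 CPM under siAPEX1 and was lower without overlap (log2 fold change −0.76, standard error 0.160, adjusted p = 0.00024). PPP1R15A, the stress-induced phosphatase subunit that reverses this phosphorylation, read 21.1, 17.4, 18.5 and 22.7 CPM against 24.7, 30.03, 40.4 and 28.6 CPM and was higher without overlap (log2 fold change 0.65, standard error 0.170, adjusted p = 0.00272). Both encode enzymes or subunits that act on the protein of EIF2S1, and the other 3 tested genes of this list did not pass. With library size alone PPP1R15A stood at 0.31 on the log2 scale and did not pass (adjusted p = 0.144, within a range of 0.000977 to 0.144 over the alternatives).

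RPS6KB1, the S6 kinase downstream of mTORC1, was higher (10.1 ± 3.66 against 18.5 ± 3.80 CPM; log2 fold change 0.86, standard error 0.237, adjusted p = 0.00409) and was the only 1 of 8 tested genes of its list to pass. With library size alone it stood at 0.52 on the log2 scale and did not pass (adjusted p = 0.0665, within a range of 0.00127 to 0.0665 over the alternatives). DPH3, of the synthesis of diphthamide on eEF2, was higher as well (7.05 ± 2.49 against 12.8 ± 3.69 CPM; log2 fold change 0.84, standard error 0.271, adjusted p = 0.015), and so was MTIF3, a mitochondrial initiation factor (5.16 ± 2.85 against 9.98 ± 1.52 CPM; log2 fold change 0.93, standard error 0.317, adjusted p = 0.0218). PABPC1, the poly(A)-binding protein that contacts eIF4G, was lower (1267 ± 166 against 1066 ± 68.9 CPM; log2 fold change −0.25, standard error 0.0907, adjusted p = 0.0315). Of the 7 tested genes of alternative initiation, termination and recycling 0 were called by edgeR and 0 by DESeq2, while 1 lower and 1 higher had an unadjusted p under 0.05 and 4 were lower with library size alone.

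The calls of DPH3, MTIF3 and PABPC1 also turned on single libraries. DPH3 lost its call without siAPEX1 replicate 1 (adjusted p = 0.1), and MTIF3 without siCTRL replicate 3 or 4 or siAPEX1 replicate 3 (adjusted p = 0.0577, 0.0926 and 0.0672). PABPC1 lost its call without siCTRL replicate 2, 3 or 4 (adjusted p = 0.0506, 0.0526 and 0.212) and without siAPEX1 replicate 2, 3 or 4 (adjusted p = 0.133, 0.0686 and 0.121). With library size alone DPH3 and MTIF3 did not pass (adjusted p = 0.133 and 0.128). With DESeq2 none of DPH3, MTIF3 and PABPC1 passed. DPH3 and MTIF3 did not pass with all genes of at least 1 count either, nor PABPC1 with TMM factors from nuclear protein-coding genes. Over the alternatives the adjusted p ranged from 0.00288 to 0.133 for DPH3, from 0.00555 to 0.128 for MTIF3 and from 5.70e-07 to 0.212 for PABPC1.

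The scaling sets how many of the factors are called. TMM factors were 1.10 to 1.14 in the siCTRL libraries and 0.873 to 0.919 in the siAPEX1 libraries. With library size alone the median of all genes moved to −0.34 and that of the factors to −0.50, and 21 were lower and 1 higher, while 36.2% of all genes were lower and 6.33% higher. The distance between both medians was −0.16 with either scaling. Under each of the other scalings 9 or 10 factors were lower and 2 higher, and EIF2S1 was higher and EIF1, EIF2S3, EIF3A, EIF4G3, EIF4EBP1, EIF5B and EEF1A2 were lower under every scaling and with DESeq2.

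**Figure D4:**
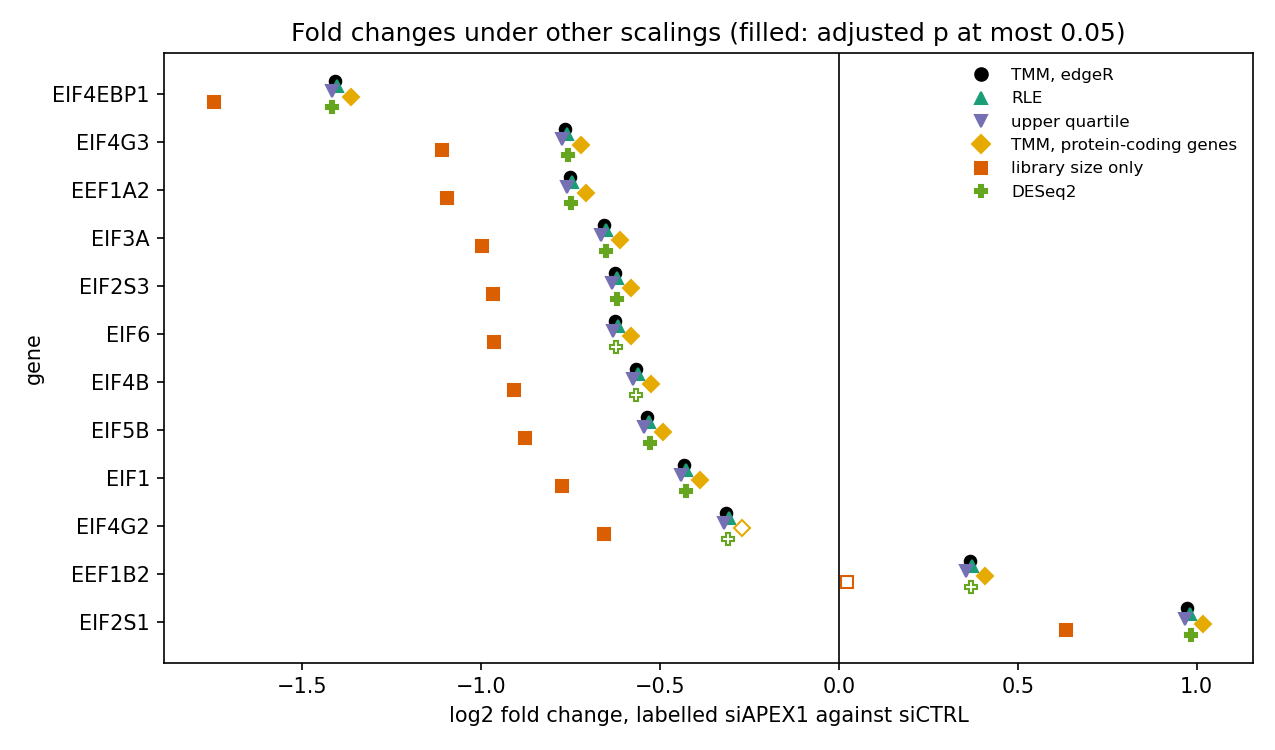
Log2 fold changes of the 12 called factor genes with edgeR under TMM factors and 4 other scalings and with DESeq2, filled where the adjusted p was at most 0.05. Library size alone (squares) moves every gene to the left, EEF1B2 to 0.023, while EIF2S1 stays to the right of 0 under each setting.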

How the data were processed

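RNA-seq was performed on 8 libraries of total RNA from A549 cells, 4 labelled siAPEX1 and 4 labelled siCTRL, and samples were grouped by their labels. The authors trimmed the reads with cutadapt, aligned them to GRCh38 with STAR 2.5.3a and counted them per Ensembl gene with its GeneCounts function, which leaves out reads with several places and reads that overlap several genes. The values the authors deposited are raw counts, without normalization. The release of the annotation and the strand setting are not given in the sources used here, so overlapping genes on either strand may share reads. GENCODE 44 gave symbols and gene types for 57532 of the 58302 identifiers. By the rule on symbols it has 64 genes, of which 62 are in the table. A control column and its sample title differ in a running number and were matched by group and replicate.

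The counts were filtered with filterByExpr (minimum count 10, minimum total 15), which kept 5368 genes and 97.5 to 98.1% of the counts, scaled with TMM and tested with the quasi-likelihood test of edgeR 4.0.16 (R 4.3.3), with Benjamini-Hochberg adjustment over all genes tested. The study's own tool, DESeq2 (version 1.42.0 here), was an alternative. CPM are counts relative to the TMM-adjusted total of a library. The common biological coefficient of variation was 0.0832. Log2 ratios of raw counts were compared by two-sided exact permutation. Replicate libraries of a group differed by more than sampling noise (chi-square per degree of freedom of at least 2.12), so none was counted as a repeat. Programs were tested on simulated data. The members and gene lists were chosen with earlier results of these data known. Named with values were members at an adjusted p of at most 0.05, the member with the most counts in each factor group, near-identical pairs, and genes of the other lists and snoRNAs within members past the same threshold. Other genes named, and the pairs compared by ratio, were chosen after their values were seen. Alternatives were other scalings, other filters, protein-coding genes alone, APEX1 left out, other thresholds, a block for the replicate number, and fits that leave out each library in turn.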

Additional observations from a re-analysis of the deposited data

Results flagged for a closer look

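In 2 of 54 sets of 4 libraries checked among the named genes, 1 library lay far from the other 3 by Dixon's criterion, where chance gives about 1 in 20. EEF2 read 270.5 CPM in siCTRL replicate 1 (538 counts) and between 230.5 and 231.9 CPM in the other siCTRL libraries. Without that library its log2 fold change was −0.13 in place of −0.19, and it did not pass in either case (adjusted p = 0.357 and 0.143, within a range of 2.62e-05 to 0.579 over the alternatives). EIF2B4 read 10.6 CPM in siCTRL replicate 1 (21 counts) and between 14.4 and 14.9 CPM in the others, and its log2 fold change without that library was −0.60 (adjusted p = 0.0575, within a range of 0.00315 to 0.29 over the alternatives).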

How the results depend on the processing

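The calls of EIF1, EIF2S1, EIF2S3, EIF3A, EIF4G3 and EEF1A2 held under all 18 alternatives, and that of EIF4EBP1 under the 17 in which it was tested. With library size only, 22 factors were called, 21 lower and 1 higher, the median log2 fold change was −0.50, 3 factors passed the fold threshold, 8 eIF3 subunits were called and 14 of the other translation genes. Under that scaling the log2 fold change was −0.24 for EIF2S2, −0.25 for EIF5A and −0.073 for SNORD66, each with the sign turned. The number called higher was 1 with all genes of at least 1 count, with at least 10 counts in every library, with DESeq2 and at an adjusted p of 0.01. The number past the fold threshold was 2 with TMM factors from nuclear protein-coding genes and with these genes alone, 0 with at least 10 counts in every library (EIF4EBP1 is then not tested) and 4 at a threshold of 0.75. In eIF3, 2 subunits were called with all genes of at least 1 count and with at least 10 counts in every library. With DESeq2, 8 factors were called, all among the 12, and with it or at an adjusted p of 0.01 the number was 1 in eIF4F, 1 among elongation factors and 3 among the other translation genes. EIF5A was at −0.00022 with all genes of at least 1 count and at −0.0065 without siCTRL replicate 2, within −0.0065 to 0.22 over the libraries left out. The cause of these shifts was not tested.

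With each library left out in turn, 10 to 13 factors were called, 8 to 10 lower and 1 to 3 higher, 1 to 2 past the fold threshold, 1 to 2 in eIF3, 1 to 4 in eIF4F and 1 to 2 among elongation factors. Of the other translation genes 4 to 7 were called, and of the 5 snoRNAs 3 to 4. The median log2 fold change ranged from −0.21 to −0.089. The replicate numbers did not pair the libraries: deviations of same-numbered libraries from their group means correlated at −0.037 to −0.0035 over 5368 genes, and 0 libraries correlated best with their own number. With the replicate block the same 12 factors were called, 10 lower and 2 higher. The ratios within a library were recomputed in the same way, which was decided on after seeing the data, and none changed its sign. At this depth 31 of the 38 tested genes had at least 10 counts in every library.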
